A study of Mus musculus with 11 samples.

Results

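The aryl hydrocarbon receptor pathway was examined through 5 genes of the deposited count table of mouse pancreatic islets: Ahr, the receptor; Arnt, its partner; and the target genes Cyp1a1, Tiparp and Ugt1a6a. They were taken by name from the 32285 genes of the table, and all 5 were among the 15093 genes with enough counts for testing. The set was chosen by the measured azoramide difference of Cyp1a1, which was already known, so every azoramide difference of these 5 genes is given as a description with no test. The comparisons between genotypes and the difference of the azoramide effect between genotypes were tested. For Cyp1a1, those that use azoramide libraries draw on the values behind this choice, so their p-values are not independent of it.

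The islets came from 16-week-old mice fed a high-fat diet for 4 weeks, and each sample pooled the islets of at least 3 mice of 1 genotype. Mice of the knockout genotype, called βZKO_Mip in the labels, carry a deletion of Zzef1 restricted to beta cells, and the controls are their littermates. The 4 groups were 3 libraries of control islets with DMSO, 3 of control islets with azoramide, 2 of islets labelled βZKO_Mip with DMSO, and 3 of islets labelled βZKO_Mip with azoramide. Azoramide, a small molecule that acts on protein folding in the endoplasmic reticulum, was given at 10 µM for 24 h, and DMSO is its solvent. The labels do not state which alleles the controls carry, what Mip stands for, or whether libraries with the same number came from the same mice. P-values therefore measure only the spread between these pools.

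The receptor AHR waits in the cytosol in a complex with the chaperone HSP90 and the cochaperone p23. When a ligand binds, AHR moves to the nucleus, pairs with ARNT and binds short DNA elements whose core reads GCGTG. Its best known target is Cyp1a1, a cytochrome P450 that oxidises planar aromatic compounds, AHR ligands among them. Tiparp, an ADP-ribosyltransferase of the PARP family, and Ahrr, a repressor that competes for ARNT, are targets that act back on the receptor. Ugt1a6a encodes an enzyme that conjugates phenols to glucuronic acid, in the detoxification step that follows oxidation. ARNT also pairs with the hypoxia-inducible factors, so its level is not a readout of AHR alone.

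RefSeq promoter windows on build GRCm38.p6 were at hand for 4 of the 5 genes (Arnt, Cyp1a1, Tiparp and Ugt1a6a), and those of the 3 targets are shown because GCGTG, the letters the receptor pair reads, is present in 2 of them and not in the third. The sequences run 5′ to 3′ on the strand of the gene, the plus strand in each case, with the core in capitals. The Tiparp line stops 50 bases short of the RefSeq start, before the annotated first exon, and the other lines run up to it. They cover chr9:57697363-57697612 for Cyp1a1, chr3:65528197-65528396 for Tiparp and chr1:88134559-88134808 for Ugt1a6a.
Cyp1a1: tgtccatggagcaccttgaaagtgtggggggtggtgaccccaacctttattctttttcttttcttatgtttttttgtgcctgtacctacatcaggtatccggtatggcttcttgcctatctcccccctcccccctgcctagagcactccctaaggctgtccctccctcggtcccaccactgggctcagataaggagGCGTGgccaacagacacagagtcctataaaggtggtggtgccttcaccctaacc
Tiparp: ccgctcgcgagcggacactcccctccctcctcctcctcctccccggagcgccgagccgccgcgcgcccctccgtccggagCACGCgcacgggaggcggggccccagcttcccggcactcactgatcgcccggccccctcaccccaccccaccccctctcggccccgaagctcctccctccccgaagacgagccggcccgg
Ugt1a6a: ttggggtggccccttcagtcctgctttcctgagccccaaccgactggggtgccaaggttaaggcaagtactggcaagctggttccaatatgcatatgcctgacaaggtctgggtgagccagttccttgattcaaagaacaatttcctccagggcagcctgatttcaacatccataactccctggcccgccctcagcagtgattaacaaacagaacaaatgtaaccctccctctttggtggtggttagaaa

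Searching the 250 bases before the RefSeq start on both strands, GCGTG was found 1 time for Cyp1a1, at 54 to 50 bases before the start. Tiparp held it 1 time on the opposite strand, where it reads CACGC in the printed line, at 170 to 166 bases before the start. The Arnt window, not printed, held it 1 time at 29 to 25 bases before the start, and that of Ugt1a6a held no copy. The core is short: it was present in 28.2% of 32851 such windows and in 42.5% of the 14832 windows of tested genes. The longer form TNGCGTG, of which GCGTG is part, was in 4.1% of all windows and in none of these 4. A match describes letters in this window and is no evidence of binding, and elements farther upstream were not searched.

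On build GRCm38 with the GENCODE M21 annotation, Cyp1a1 (ENSMUSG00000032315) spans chr9:57687928-57703824 on the plus strand, and the printed window lies inside this span. The longest coding transcript of Cyp1a1 has 7 exons, and exons of the other genes are counted in the same way. Ahr (ENSMUSG00000019256) spans chr12:35497974-35535038 on the minus strand with 11 exons. Arnt (ENSMUSG00000015522) spans chr3:95434388-95497240 with 22 exons, and Tiparp (ENSMUSG00000034640) spans chr3:65528410-65555518 with 6, both on the plus strand. Of the exonic length of Tiparp, 5.1% lies opposite the pseudogene 4931440P22Rik, whose exon also covers the printed Tiparp window. Ugt1a6a (ENSMUSG00000054545) spans chr1:88134809-88218997 on the plus strand with 6 exons, and 50.3% of its exonic length is shared with other Ugt1a genes, which use the same last exons. Its counts are therefore uncertain, since how reads of these exons were assigned is not stated.

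Depth ran from 16832800 to 19501813 counts per library. Islet identity was clear from Ins2, with a median of 85108 CPM (counts scaled to library size), and all 11 beta cell markers were read in each of the 11 libraries. Zzef1, the targeted gene, was read in all libraries, at 97.2 ± 12.2 CPM (SD, n = 3) in control islets with DMSO and 81.5 ± 2.93 (n = 2) in those labelled knockout, a log2 difference of -0.26 (SE 0.09) with an adjusted p of 0.999 in edgeR's quasi-likelihood test. With azoramide the order was the other way, at 66.6 ± 2.02 CPM (n = 3) in control islets and 72.8 ± 4.53 (n = 3) in those labelled knockout (log2 difference 0.13, SE 0.08, adjusted p 0.968). Islets hold other cells than beta cells, and the counts do not show the deletion, so libraries are called labelled knockout throughout. In a principal component analysis control DMSO replicate 2 and labelled knockout azoramide replicate 3 lay at opposite ends of the second component (12.3% of the variance). On the first component (32.9%) they lay at 7.82 and -9.53, each on the side of most libraries of the other treatment.

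Cyp1a1 was the member that stood apart. It was read at 2.67, 4.01 and 4.16 CPM in control islets with DMSO, and at 43.4, 45.4 and 32.1 CPM in control islets with azoramide. In islets labelled knockout it was read at 3.80 and 4.27 CPM with DMSO, and at 28.1, 27.0 and 33.1 CPM with azoramide. All 6 azoramide libraries lay far above all 5 DMSO libraries, with no overlap in either genotype. The raw counts behind these levels were 48 to 89 per library with DMSO and 486 to 788 with azoramide.

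With azoramide the Cyp1a1 level was 11.1-fold that with DMSO in control islets (log2 difference 3.47, SE 0.17, 95% interval of the fold 8.64 to 14.2). In islets labelled knockout it was 7.27-fold (log2 difference 2.86, SE 0.19, interval 5.46 to 9.68). Among the 12403 tested genes with a mean log2 CPM of at least 1, this log2 difference towards azoramide ranked 1 in control islets and 7 in islets labelled knockout. These ranks describe the value by which the gene was chosen. Over the 19 alternative settings and left-out libraries the log2 difference stayed between 3.30 and 3.61 in control islets and between 2.71 and 2.95 in islets labelled knockout.

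**Figure D1:**
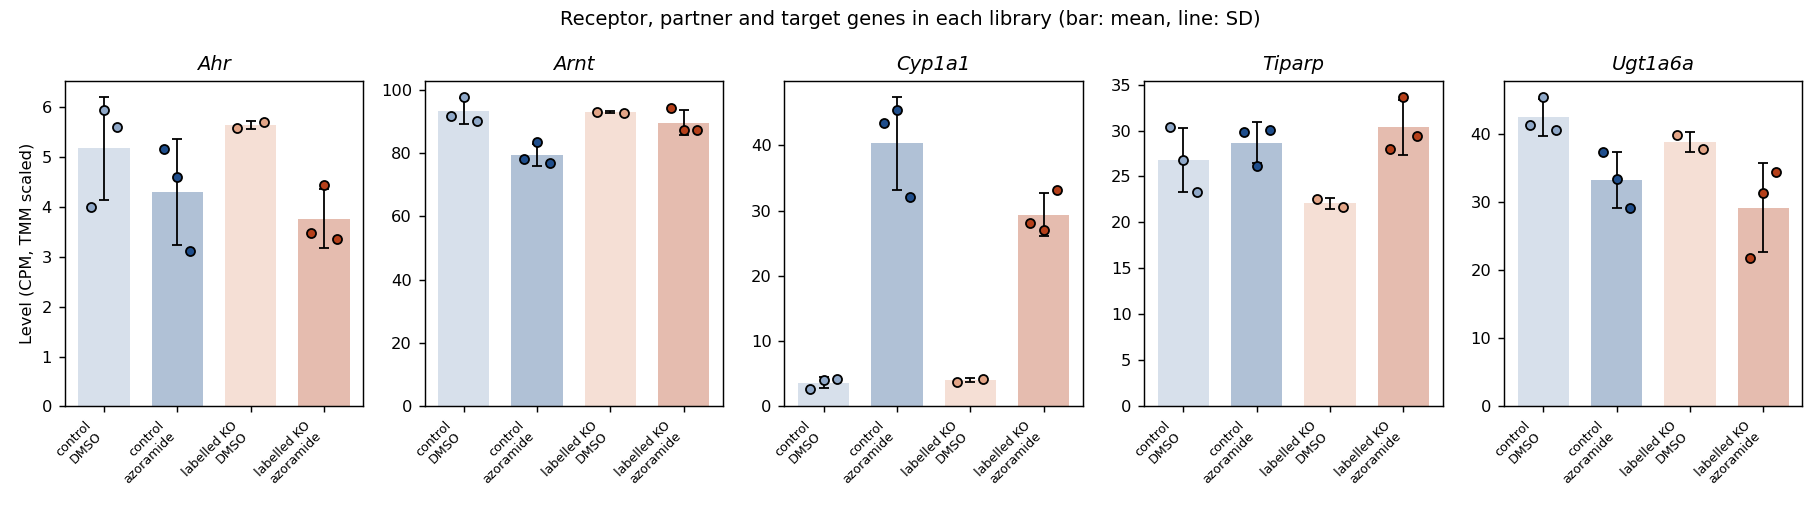
Level of each of the 5 genes in CPM after TMM scaling (vertical axes, starting at 0 and different for each gene) in the 4 groups (horizontal axis); points are libraries, bars the mean and lines the SD. Cyp1a1 sits at 2.67 to 4.27 CPM in the DMSO libraries and at 27.0 to 45.4 CPM in the azoramide libraries, while the bars of the other 4 genes differ far less.

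Ahr, the receptor gene itself, was read at 4.01, 5.94 and 5.60 CPM in control islets with DMSO and at 5.17, 4.61 and 3.11 CPM with azoramide, ranges that overlap. In islets labelled knockout it was read at 5.59 and 5.70 CPM with DMSO and at 3.49, 4.45 and 3.36 CPM with azoramide, where all 3 azoramide libraries were below both DMSO libraries. The log2 differences were -0.27 (SE 0.22, 95% interval -0.74 to 0.19) in control islets and -0.58 (SE 0.24, interval -1.09 to -0.08) in islets labelled knockout. The receptor transcript thus lay on the lower side with azoramide, by little in control islets. With 56 to 120 counts per library, Ahr was thinly counted, like Cyp1a1 with DMSO.

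Arnt, the partner, was read at 91.7, 97.9 and 90.0 CPM in control islets with DMSO and at 78.1, 83.4 and 76.9 CPM with azoramide, so all 3 azoramide libraries were lower. The labelled knockout libraries read it at 93.1 and 92.7 CPM with DMSO and at 94.2, 87.5 and 87.2 CPM with azoramide, which overlap. The log2 differences were small, at -0.23 (SE 0.06) in control islets and -0.05 (SE 0.07) in islets labelled knockout. They also moved with the correction used: correcting for transcript length and GC content gave -0.06 and 0.11, and plain library totals, which shift the median of all genes by -0.17 and -0.16, gave -0.40 and -0.21. The direction of Arnt in islets labelled knockout thus turns with the length and GC correction and not with plain totals.

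Tiparp, a target that ADP-ribosylates the receptor, was read at 30.3, 26.8 and 23.4 CPM in control islets with DMSO and at 29.8, 26.1 and 30.1 CPM with azoramide, ranges that overlap. The labelled knockout libraries held 22.5 and 21.7 CPM with DMSO and 28.0, 33.7 and 29.4 CPM with azoramide, so that all 3 azoramide libraries were higher. The log2 differences were 0.10 (SE 0.10, 95% interval -0.12 to 0.31) in control islets, where the length and GC correction turned the sign (-0.14), and 0.46 (SE 0.12, interval 0.21 to 0.70) in islets labelled knockout, where that correction left 0.15. With plain library totals the control value was -0.07, which is no further from the main value than the shift of all genes. Both labelled knockout DMSO libraries were the lowest of the 11 for this gene.

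Ugt1a6a was read at 41.4, 45.6 and 40.6 CPM in control islets with DMSO and at 37.4, 33.4 and 29.1 CPM with azoramide. Its level in islets labelled knockout was 39.9 and 37.9 CPM with DMSO and 21.9, 31.4 and 34.5 CPM with azoramide. Azoramide libraries were lower in both genotypes, with no overlap, which is the opposite side from Cyp1a1. The log2 differences were -0.35 (SE 0.14, 95% interval -0.66 to -0.05) in control islets and -0.41 (SE 0.16, interval -0.75 to -0.07) in islets labelled knockout. Ugt1a7c, Ugt1a9 and Ugt1a1, which share exons with it, lay on the higher side in both genotypes, with intervals that span 0. Ugt1a7c stood at 0.71 (SE 0.34) in control islets and 0.49 (SE 0.37) in islets labelled knockout.

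As a count over the 5 genes, libraries of the treatments did not overlap for 3 in control islets (Cyp1a1 higher, Arnt and Ugt1a6a lower) and for 4 in islets labelled knockout (Cyp1a1 and Tiparp higher, Ahr and Ugt1a6a lower). Over all tested genes that share was 48.4% in control islets and 61.6% in islets labelled knockout. Azoramide differences were widespread: 39.0% of tested genes passed an adjusted p of 0.05 in control islets and 39.8% in islets labelled knockout. For the 5 genes no call at that threshold is given, because the set was chosen by such a difference. Nothing is read from the counts of genes without overlap.

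Because longer transcripts collect more reads, levels were compared between genes only as CPM per kilobase of exon. In control islets with DMSO the order was Arnt at 11.6 ± 0.517 (SD, n = 3), Ugt1a6a at 9.86 ± 0.621, Tiparp at 6.16 ± 0.801, Cyp1a1 at 1.30 ± 0.294 and Ahr at 0.841 ± 0.168. The same order held with DMSO in islets labelled knockout, from Arnt at 11.6 ± 0.0394 (n = 2) to Cyp1a1 at 1.45 ± 0.119 and Ahr at 0.917 ± 0.0126. The ranges of Cyp1a1 and Ahr touched in control islets with DMSO, but Cyp1a1 was above Ahr in each of the 3 libraries. With azoramide Cyp1a1 came first in control islets, at 14.5 ± 2.58 against 9.92 ± 0.434 for Arnt. In islets labelled knockout with azoramide, Cyp1a1 at 10.6 ± 1.17 and Arnt at 11.2 ± 0.497 did not differ beyond their spread, and neither did Tiparp at 6.96 ± 0.686 and Ugt1a6a at 6.78 ± 1.52. Ahr stayed last in all 4 groups. The place of Ugt1a6a is uncertain, because 50.3% of its exonic length is shared with other Ugt1a genes.

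Genotype comparisons were tested for the 5 genes, with p-values adjusted over all 15093 genes in edgeR's quasi-likelihood test. None of the 5 passed with DMSO, with azoramide or for the difference of the azoramide effects, and neither did any other gene (0.0% in each). At an unadjusted p under 0.05 stood 531, 754 and 563 genes, which is 3.52%, 5.0% and 3.73% of those tested. These shares do not exceed the threshold of 0.05 itself, so the unadjusted p-values given below carry little weight. DESeq2 called 3, 2 and 0 genes. The group of 2 labelled knockout libraries with DMSO limits the first and the last of these comparisons.

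Cyp1a1 with DMSO differed between genotypes by a log2 difference of 0.15 (SE 0.22, 95% interval -0.32 to 0.63, adjusted p 0.999 in edgeR) that became -0.02 without control DMSO replicate 1, and the libraries overlapped. With azoramide the level in islets labelled knockout was 29.4 ± 3.27 CPM (n = 3) against 40.3 ± 7.20 (n = 3) in control islets, and 1 control library lay within the range of the other group. That log2 difference was -0.45 (SE 0.14, interval -0.75 to -0.16), with an unadjusted p of 0.00494 and an adjusted p of 0.958 in edgeR. The azoramide effect differed between genotypes by -0.61 (SE 0.26, interval -1.16 to -0.05), with an unadjusted p of 0.0337 and an adjusted p of 0.999. A smaller response in islets labelled knockout was therefore not established at this number of libraries, and the interval reaches from hardly any difference to a response smaller by more than 1 log2 unit. Both comparisons that use azoramide libraries draw on the values by which Cyp1a1 was chosen, so their p-values are not independent of that choice.

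Tiparp was lower in islets labelled knockout with DMSO than in control islets with DMSO, with no overlap, by a log2 difference of -0.28 (SE 0.12, unadjusted p 0.0279, adjusted p 0.999 in edgeR). Of all tested genes, 9.57% were lower in this comparison without overlap, and Ugt1a6a was another (log2 difference -0.13, SE 0.15, adjusted p 0.999). The azoramide effect on Tiparp differed between genotypes by 0.36 (SE 0.16, unadjusted p 0.0325, adjusted p 0.999 in edgeR). Arnt with azoramide was higher in islets labelled knockout by 0.17 (SE 0.06, unadjusted p 0.00934, adjusted p 0.958 in edgeR), without overlap, as were 5.57% of all tested genes. Ahr differed by 0.12 (SE 0.24) with DMSO and by -0.19 (SE 0.22) with azoramide, with intervals that span 0.

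**Figure D2:**
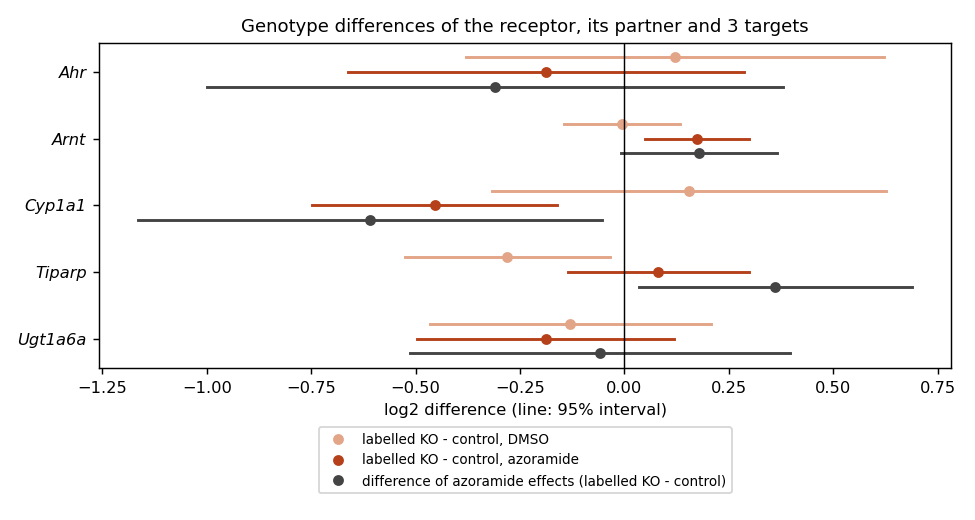
Differences between genotypes for the 5 genes as log2 values (horizontal axis), with 95% intervals as lines: labelled knockout minus control with DMSO, the same with azoramide, and the difference of the azoramide effects. The intervals of Cyp1a1 with azoramide (-0.75 to -0.16) and for the difference of effects (-1.16 to -0.05) leave out 0, but no adjusted p passed the threshold. Both of these intervals draw on the azoramide values by which Cyp1a1 was chosen.

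Beyond the 5 genes, a list of 39 other genes named as AHR targets was read, of which 26 had enough counts for testing. In control islets 5 rose (Nqo1, Scin, Areg, Il1b and Bax) and 3 fell (Slc7a5, Lpcat2 and Cdkn1b) with azoramide, that is 30.8% beside 39.0% of all tested genes. With the knockout label 4 rose (Nqo1, Areg, Il1b and Bax) and 3 fell (Slc7a5, Gstm1 and Cdkn1b), 26.9% beside 39.8%. The median log2 difference of the 26 was 0.10 in control islets and 0.29 in islets labelled knockout, against -0.02 and 0.00 for all tested genes. In both genotypes 4 genes rose and 2 fell. The largest log2 difference of a called gene of this list was 1.44 for Scin, beside 3.47 for Cyp1a1. The 9 genes called in either genotype do different things, from redox enzymes to a cytokine and a growth factor.

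Nqo1, a quinone reductase whose gene is read by both AHR and the oxidative stress factor NRF2, rose from 19.0 ± 2.02 CPM (n = 3) to 34.8 ± 3.26 (n = 3) in control islets, a log2 difference of 0.87 (SE 0.11, adjusted p 8.83e-06 in edgeR). Under the knockout label it rose from 18.7 ± 3.64 CPM (n = 2) to 26.8 ± 0.255 (n = 3), by 0.52 (SE 0.12, adjusted p 0.00263), a call that ended without labelled knockout DMSO replicate 2 (0.33, adjusted p 0.0924) and also after correction for length and GC content (0.13, adjusted p 0.489). A separate list of 20 genes of the NRF2 pathway includes Nqo1, the gene of NRF2 itself and that of its inhibitor. Of these 20, 8 rose and 1 fell in control islets (45% beside 39.0% of all tested genes), with 7 and 1 in islets labelled knockout (40.0% beside 39.8%). The gene of NRF2 rose in both genotypes, and that of its inhibitor was the 1 that fell in islets labelled knockout. Prdx1, a peroxidase (0.82 and 0.80), and Ftl1, the ferritin light chain (0.58 and 0.52), were among those that rose. The window of Nqo1 that was searched for the core held no copy.

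Il1b, the gene of the cytokine interleukin 1 beta, rose by 0.94 (SE 0.29, adjusted p 0.0169 in edgeR) in control islets and by 1.41 (SE 0.34, adjusted p 0.00346) in islets labelled knockout. The summed level of 12 macrophage markers was also higher: it lay between 49.8 and 63.1 CPM with DMSO and between 68.3 and 86.6 CPM with azoramide in control islets. The labelled knockout libraries lay between 55.7 and 55.8 CPM with DMSO and between 68.8 and 128 CPM with azoramide. None of the 12 was at 0 throughout. In control islets 2 of them rose (16.7% beside 39.0% of all tested genes) and in islets labelled knockout 3 (25.0% beside 39.8%), and their part in the Il1b result was not tested. Areg, an EGF receptor ligand, rose by 0.76 (SE 0.27) and 1.26 (SE 0.31). The control calls of Il1b and Areg ended under 3 and 5 alternatives, with adjusted p up to 0.114 and 0.296, and that of Il1b in islets labelled knockout ended without labelled knockout DMSO replicate 1 (1.25, adjusted p 0.0512). Scin, an actin-severing protein with mean levels of 0.445 CPM with DMSO and 1.22 CPM with azoramide in control islets, lost its control call in 5 alternatives (adjusted p up to 0.131), and Lpcat2, a lipid acyltransferase, in 8 (up to 0.131).

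Slc7a5, a subunit of the large amino acid transporter that also carries AHR ligand precursors, fell from 199 ± 12.5 CPM (n = 3) to 146 ± 18.2 (n = 3) in control islets, by 0.44 on the log2 scale (SE 0.08, adjusted p 0.000275 in edgeR). The fall was 0.43 (SE 0.09, adjusted p 0.000751) in islets labelled knockout, a call that ended with the length and GC correction (adjusted p 0.0612). Bax, which promotes cell death at mitochondria, rose by 0.32 (SE 0.07) and 0.28 (SE 0.07), calls that ended with plain library totals and, under the knockout label, also without DMSO replicate 2 (adjusted p up to 0.197). The cell cycle inhibitor Cdkn1b fell by 0.28 (SE 0.08) and 0.27 (SE 0.09), calls lost in 1 and 3 alternatives that leave out a library (adjusted p up to 0.0527 and 0.147), and Gstm1, a glutathione transferase, fell by 0.38 (SE 0.13) in islets labelled knockout, a call lost in 9 alternatives.

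Several of the classic targets were at the edge of what the depth can show. Cyp1a2, the neighbour of Cyp1a1 on chromosome 9, had 3 counts over all 11 libraries, and Cyp1b1, the other family member, had 49. Those of Cyp1b1 were 12 with DMSO and 14 with azoramide in control islets, with 3 libraries each. Under the knockout label they were 6 over 2 libraries with DMSO and 17 over 3 with azoramide. Ahrr, the repressor, had 3 counts over the 3 control libraries with DMSO and 14 with azoramide, and 0 over the 2 labelled knockout libraries with DMSO and 11 over 3 with azoramide. The sums of Ahrr were higher with azoramide but too low for testing. The promoter window of Ahrr held the GCGTG core 3 times, that of Cyp1b1 held it 1 time and that of Cyp1a2 held no copy. The longer form TNGCGTG, in 4.1% of all windows, was found 1 time in that of Ahrr and not in the others. The core was present in 28.2% of all windows, and a match is no evidence of binding. Aldh3a1 had 3 counts in all and Ugt1a6b had 46. Those of Ugt1a6b were 27 with DMSO and 7 with azoramide in control islets. In islets labelled knockout they were 5 over 2 libraries with DMSO and 7 over 3 with azoramide. None of these genes was tested.

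**Figure D3:**
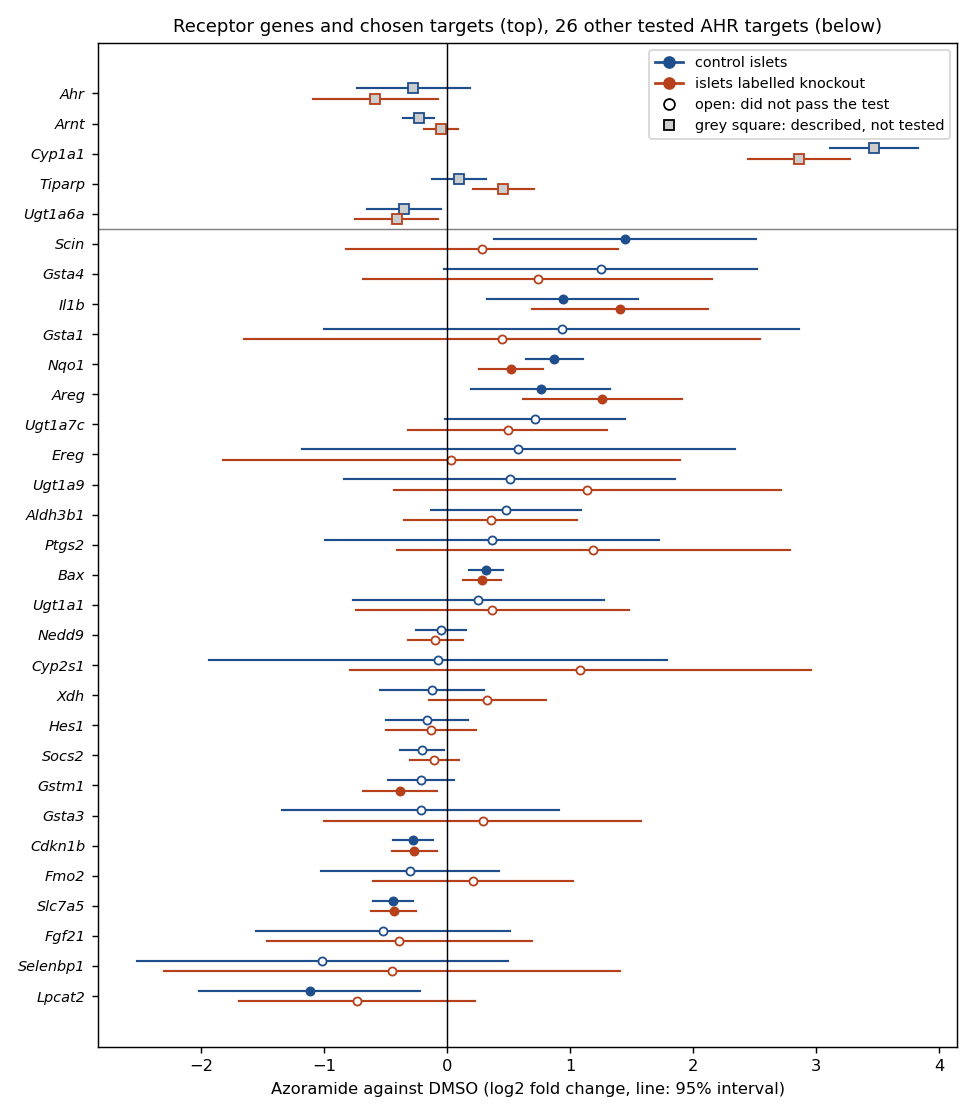
Azoramide against DMSO as log2 fold change with 95% intervals (horizontal axis) for the 5 genes (grey squares, described only) and the other 26 tested AHR targets (circles, filled where the adjusted p was under 0.05) in control islets and islets labelled knockout. Cyp1a1 lies at 3.47 and 2.86, while the called targets lie between -1.12 and 1.44.

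Chaperones and cofactors of the receptor were read next. Of 20 genes on this list 18 were tested: 3 rose and 9 fell in control islets (66.7% beside 39.0% of all tested genes), and 2 rose and 7 fell in islets labelled knockout (50.0% beside 39.8%). The 2 genes that rose in both encode chaperones of the cytosolic complex. Hsp90aa1, the inducible HSP90, rose by 0.58 (SE 0.06) and 0.63 (SE 0.07), and Ptges3, which encodes p23, by 0.29 (SE 0.07) and 0.25 (SE 0.08). Ptges3 turned negative with the length and GC correction (-0.10 and -0.20) and lost both calls with plain library totals (0.12 and 0.09). Its call under the knockout label also ended without DMSO replicate 2 (adjusted p 0.24) or azoramide replicate 2 (adjusted p 0.0566). Stub1, a ubiquitin ligase, rose in control islets by 0.19 (SE 0.07), a call lost in 9 alternatives, and Hsp90ab1, the constitutive HSP90, did not pass in either genotype.

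Nuclear coactivators were among the genes that fell. The acetyltransferase Ep300 fell from 135 ± 5.32 CPM (n = 3) to 96.8 ± 2.79 (n = 3) in control islets and from 150 ± 4.39 CPM (n = 2) to 102 ± 4.81 (n = 3) in islets labelled knockout. Crebbp, its paralog, fell from 71.1 ± 3.14 to 50.0 ± 3.02 CPM and from 77.2 ± 1.84 to 52.3 ± 6.69 CPM. The steroid receptor coactivators Ncoa1, Ncoa2 and Ncoa3, the remodeller Smarca4 and the retinoblastoma gene Rb1 fell in both genotypes as well. Rb1 lost its calls in 4 and 9 alternatives. Med1, a Mediator subunit, and Trip11 fell in control islets and did not pass in islets labelled knockout, and their difference between genotypes did not pass either. With the length and GC correction Smarca4 stood at 0.04 in control islets, and the control calls of Smarca4, Crebbp (adjusted p 0.0935 in edgeR) and Med1 ended, as did those of Smarca4 and Ncoa3 under the knockout label.

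**Figure D4:**
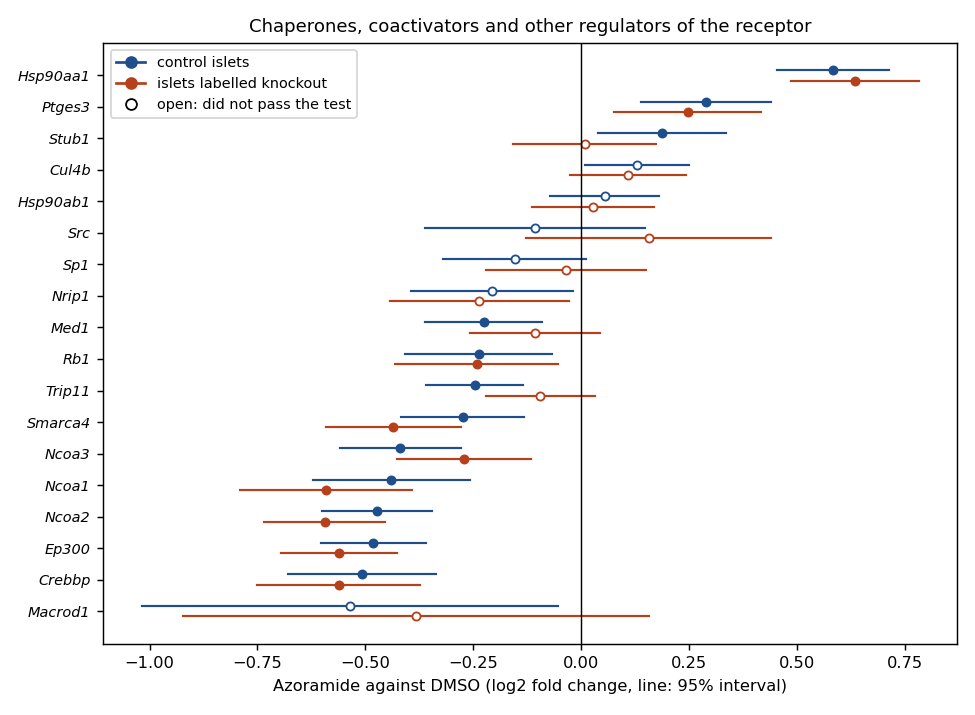
Azoramide against DMSO as log2 fold change with 95% intervals (horizontal axis) for 18 tested chaperones, coactivators and other regulators of the receptor, in control islets and islets labelled knockout, with filled points where the adjusted p was under 0.05. Hsp90aa1 and Ptges3 lie above 0 and Ep300, Crebbp, Ncoa1 and Ncoa2 below 0 in both genotypes.

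Enzyme families that share functions with the 3 targets were counted in the same way, each share to be read beside the 39.0% and 39.8% of all tested genes that passed. Of 79 other P450 genes of families 1 to 4 only 13 were tested, of which 2 rose and 2 fell in control islets (30.8%), with 4 and 2 in islets labelled knockout (46.2%). Cyp2j6, an epoxygenase, rose by 0.58 (SE 0.11) and 0.63 (SE 0.12), and Cyp4f39 fell by 0.62 (SE 0.14) and 1.08 (SE 0.15). Of 10 tested genes of glucuronidation other than Ugt1a6a, 5 rose and none fell in either genotype (50.0% in each). They include Ugt2b34, a transferase of another family (0.65 and 0.65), and Ugdh, which makes the glucuronic acid donor (0.26 and 0.28, calls lost with plain library totals). Of 16 PARP genes other than Tiparp, 1 rose and 6 fell in control islets, with 0 and 7 in islets labelled knockout (43.8% in each), Parp1 among them at -0.36 and -0.33 (calls lost with the length and GC correction). Of 10 tested genes of the xenobiotic receptors PXR and CAR, 0 rose and 2 fell in control islets (20%), with 2 and 2 in islets labelled knockout (40.0%).

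Relatives of AHR and ARNT, HIF targets and genes of AHR ligand metabolism were read beside the same 39.0% and 39.8% of all tested genes. Of 13 tested genes of the bHLH-PAS family, to which AHR and ARNT belong, 2 rose and 4 fell in control islets, with 1 and 5 in islets labelled knockout (46.2% in each). Epas1, which encodes the hypoxia-inducible factor HIF-2α, fell by 0.50 (SE 0.12) and 0.57 (SE 0.13), and the circadian gene Clock rose by 0.20 (SE 0.06) and 0.30 (SE 0.06), calls lost with plain library totals. Of 14 tested HIF targets 0 rose and 5 fell in control islets, with 3 and 2 in islets labelled knockout (35.7% in each), and Ndrg1 fell in both (-0.48 and -0.48). Of 14 tested genes that make or clear AHR ligands from tryptophan and related compounds, 3 rose and 1 fell in control islets (28.6%), with 3 and 2 in islets labelled knockout (35.7%). Kyat3, a kynurenine aminotransferase, rose in both, by 0.69 (SE 0.14) in control islets.

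Genes whose level followed a member most closely over the 11 libraries were found by Pearson's r of log2 CPM among 11625 genes. For Cyp1a1 these were Ifi30 (r = 0.992), Rpl28 (0.992), Rps19 (0.990), Rps20 (0.989) and Rpl18 (0.989). Ifi30 encodes a lysosomal thiol reductase and the other 4 encode ribosomal proteins. They shared the pattern and not the size, since Rpl28 differed by 0.88 and 0.79 on the log2 scale with azoramide and Ifi30 by 0.63 and 0.47. For Ahr the closest were Arap3 (0.907), Cd93 (0.890), a surface protein of endothelial and myeloid cells, and Znrf3 (0.890), and for Arnt Zyx (0.925), Rbm22 (0.914) and Dxo (0.909). For Tiparp they were Eif3a (0.941), Hspa1a (0.916) and Fpgt (0.915), and for Ugt1a6a Mtr (0.961), Pola2 (0.954) and Zfp839 (0.947). These values describe 11 libraries that share a split by treatment, and carry no test.

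**Figure D5:**
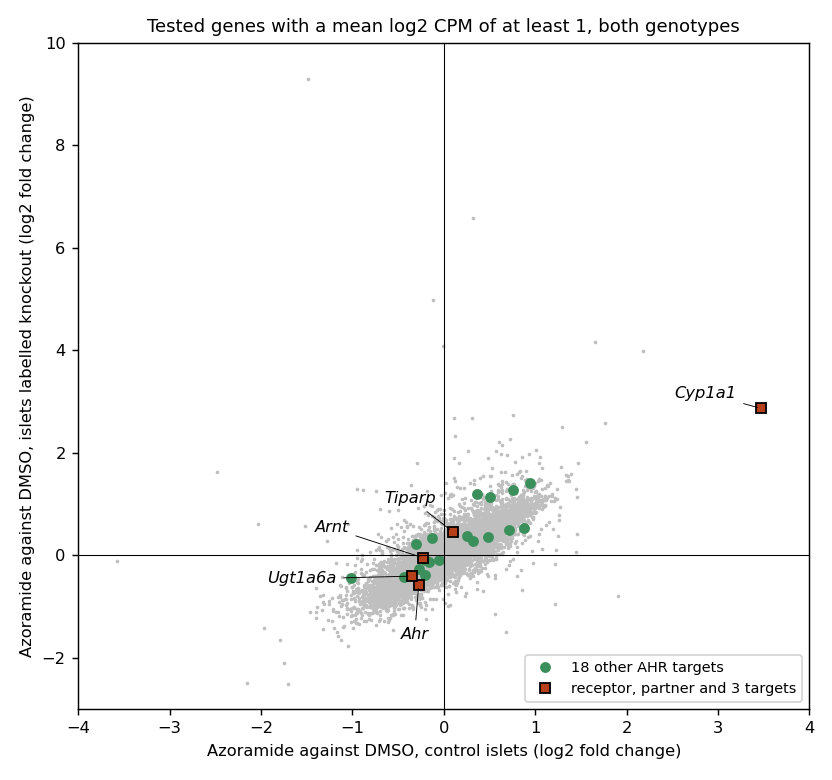
Azoramide against DMSO as log2 fold change in control islets (horizontal axis) and in islets labelled knockout (vertical axis) for the 12403 tested genes with a mean log2 CPM of at least 1 (grey), with the 5 genes as squares and 18 other AHR targets as green points. Cyp1a1 lies at 3.47 and 2.86, apart from the cloud that holds the other 4 genes.

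Some markers of islet and pancreas cells moved with azoramide too, and their levels stand beside all differences of the 5 genes. Of 11 beta cell markers 4 rose and 5 fell in control islets (81.8% beside 39.0% of all tested genes). In islets labelled knockout 3 rose and 5 fell (72.7% beside 39.8%). Their summed level ran from 140599 to 142979 CPM with DMSO and from 152556 to 193306 CPM with azoramide in control islets. In islets labelled knockout it ran from 130820 to 133955 and from 141410 to 175311 CPM. These sums are carried by Ins2, Iapp and Ins1, with medians of 85108, 31299 and 25399 CPM. The median log2 difference of the 11 markers was -0.39 in control islets and -0.50 in islets labelled knockout, the opposite side from the sums. The alpha cell sum that follows is carried by Gcg, with a median of 22757 CPM. The summed level of 7 alpha cell markers ran from 14722 to 16813 CPM over the DMSO libraries and from 23949 to 28080 CPM over the azoramide libraries of both genotypes, and 4 of the 7 rose in control islets (57.1% beside 39.0% of all tested genes) and 5 in islets labelled knockout (71.4% beside 39.8%). That of 10 ductal markers ran from 1483 to 1862 CPM with DMSO and from 2109 to 2451 CPM with azoramide in control islets. For 12 endothelial markers it ran from 448 to 484 CPM with DMSO and 385 to 462 with azoramide in control islets, and from 465 to 493 and 379 to 451 in islets labelled knockout. Acinar markers overlapped between groups, from 698 to 7026 CPM over all libraries, and of the lymphocyte markers Cd3g and Cd8a were at 0 in all 11. In such pools fewer cells of a type and less RNA per cell cannot be told apart, and the part of these shifts in the values of Cyp1a1, Ahr or Ugt1a6a was not tested.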

How the data were processed

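Raw counts of reads for each gene were deposited by the authors as 1 table of 11 libraries; the unit was checked from the values. The submitters' processing notes name STAR 2.7.2a, mm10 and DESeq2, with no roles. How reads were counted, with which annotation and strand, is not given in the sources used here: antisense and shared exons cannot be separated. Groups came from the sample titles.

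Differential expression was computed with edgeR 4.0.16 in R 4.3.3 (robust quasi-likelihood test, TMM scaling, filterByExpr by group at a minimum count of 10) in 1 fit of 4 groups over 11 libraries, with Benjamini-Hochberg adjustment over 15093 genes and a threshold of 0.05. The step was tested on simulated data. Levels are CPM after TMM scaling, as mean ± SD. Intervals are 95% and rest on the spread between pooled samples. Exonic lengths come from GENCODE M21 and promoters from RefSeq GRCm38.p6.

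The 5 genes, the gene lists and the tests were chosen with earlier results of these data known. Named genes are the 5 genes, any tested gene of the lists of AHR targets and of its complex, up to 4 of smallest p per other list, the 5 or 3 genes most alike with a mean log2 CPM of at least 1 and an established symbol, markers and Zzef1. The lists of AHR targets and of glucuronidation genes share members, and Nqo1 is on 2 lists. Some genes are not reported here and were left out of the lists. Alternatives were DESeq2 1.42.0 (size factors and Wald test), plain library totals, a length and GC correction by splines, no filter, only the groups compared, a replicate block, each library left out, and, added after the data were seen, both libraries at the ends of the second component left out.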

Additional observations from a re-analysis of the deposited data

How the results depend on the processing

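None of the 5 genes passed in a genotype comparison under any of 18 alternatives. With the length and GC correction 3460 genes were called in control islets (60.4% higher, against 49.3% of 5893) and 3678 in islets labelled knockout (57.4% higher, against 50.2% of 6006). Plain library totals moved the median of all genes by -0.17 and -0.16 and the higher share to 24.8% and 29.1%. For the genotypes with DMSO 2 genes were called with no filter, 2 without both libraries at the ends of the second component, 3 by DESeq2 and 0 to 3 with 1 library left out. With azoramide these were 84 without both libraries, 2 by DESeq2 and 0 to 3. For the difference of effects they were 6 without both libraries, 1 with the replicate block and 0 to 1. AHR targets that rose in control islets numbered 5, but 2 with plain totals, 2 with the length and GC correction, 9 without both libraries and 3 to 7 with 1 library left out (3 without control DMSO replicate 3 or control azoramide replicate 3). Those that fell numbered 3, but 5 with plain totals and 5 without both libraries. In islets labelled knockout 4 rose, but 7 without both libraries and 2 to 5 with 1 library left out, and 3 fell, with 1 to 3. Genes of the complex that rose numbered 3 and 2, but 1 and 1 with plain totals, and 1 to 2 in islets labelled knockout with 1 library left out. Leaving out labelled knockout DMSO replicate 2 gave the lowest value of the last 3 ranges, alone for the first and along with other libraries for the others. Deviations of libraries from their group mean correlated by -0.14 to 0.11 for the same replicate number and by -0.15 to 0.15 for different numbers. With so few libraries these values cannot decide whether the numbers pair libraries. The replicate block gave 6004 and 6162 called genes in the azoramide comparisons and could not be fitted to the genotype comparisons. Depth limits Cyp1a2, Cyp1b1, Ahrr and 10 more AHR targets, which were not tested.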
